A study of Mus musculus with 6 samples.

Results

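The genes described here are the BMP and TGF-beta family and the components that carry its signal, 51 of the 32000 genes in a table of bulk mRNA sequencing of mouse cortical bone. The rule that picks them uses gene symbols and no measured value, although the family was chosen for description with earlier results of these data known. It takes the Bmp, Gdf, Inha, Inhb and Tgfb genes, the Tgfbr, Bmpr and Acvr receptor genes, the Smad genes and Id1, Id2, Id3 and Id4. By role, 19 encode BMP or GDF ligands, 7 encode TGF-beta or activin ligands or their subunits, 7 type I receptors, 5 type II and III receptors, 8 SMADs and 4 Id proteins. The remaining gene, Bmp1, was matched by its name only, since it encodes a procollagen C-proteinase and not a ligand.

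The question was what prolonged feeding on a high-fat diet does to bone transcripts late in life. The 2 diets were compared with 3 libraries each, all from male C57BL/6J mice 18 months old. The HFD group (replicates 2, 3 and 4) had received a high-fat diet for 12 months, and the CD group (replicates 1, 2 and 4) had received a diet that the labels call a chewing diet for the same 12 months. The labels give the tissue as cortical bone, and the results of the study name bone particles. The methods of the study instead describe bone marrow cells from femurs and tibias for bulk sequencing. How much marrow and how much bone the RNA represents is therefore not settled, and bone is used below as the labels' name. Whether the 3 libraries of a group stem from 3 different animals is not given in the labels. The p-values therefore refer to differences among these libraries, which could be technical in origin.

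Ligands of this family are secreted as dimers cut from larger precursors, and they bring type I and type II serine/threonine kinase receptors together at the cell surface. The type I receptor then phosphorylates SMAD proteins: Smad1, Smad5 and Smad9 (the last also called Smad8) carry the signal of BMPs, whereas Smad2 and Smad3 carry that of TGF-beta and activin. Both sets bind Smad4 and act on genes in the nucleus, Smad6 and Smad7 inhibit the route, and the Id genes are direct targets of BMP signals. In bone, BMPs are known to drive osteoblast differentiation, and TGF-beta is stored in the matrix and released during resorption.

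Promoter sequences of the family were read from RefSeq (GRCm38.p6) and searched on both strands for letters that SMAD proteins are known to bind. Of the 51 members, 36 had a window of 280 bases, which runs from 250 bases before the start of transcription to 30 bases from it on. GGCGCC, the GC-rich element bound in BMP target genes, was in 10.9% of all 32851 windows and in 10 of the 36 members' windows. GTCTAGAC, the palindrome bound by Smad3 and Smad4, was in 0.192% of all windows and in 1 member's. CAGACA, the core of the CAGA box of TGF-beta target genes, which reads TGTCTG on the other strand, was in 19.6% of all windows and in 5 members'. No one of the 3 motifs lies inside another. The 4 windows below are shown because they belong to the members that had an unadjusted p under 0.05 in the diet comparison and held a motif, which is in capitals.
Smad6: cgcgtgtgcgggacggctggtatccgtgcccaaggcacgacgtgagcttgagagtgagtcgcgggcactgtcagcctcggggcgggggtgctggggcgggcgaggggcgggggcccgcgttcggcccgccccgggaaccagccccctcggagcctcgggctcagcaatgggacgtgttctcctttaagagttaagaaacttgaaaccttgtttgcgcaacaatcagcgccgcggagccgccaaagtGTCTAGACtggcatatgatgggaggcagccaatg
Smad9: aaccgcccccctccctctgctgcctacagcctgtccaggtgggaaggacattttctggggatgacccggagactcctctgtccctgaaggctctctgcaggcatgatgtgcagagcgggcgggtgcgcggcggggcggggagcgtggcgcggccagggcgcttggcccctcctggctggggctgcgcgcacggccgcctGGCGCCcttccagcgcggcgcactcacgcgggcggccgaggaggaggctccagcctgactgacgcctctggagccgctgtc
Id4: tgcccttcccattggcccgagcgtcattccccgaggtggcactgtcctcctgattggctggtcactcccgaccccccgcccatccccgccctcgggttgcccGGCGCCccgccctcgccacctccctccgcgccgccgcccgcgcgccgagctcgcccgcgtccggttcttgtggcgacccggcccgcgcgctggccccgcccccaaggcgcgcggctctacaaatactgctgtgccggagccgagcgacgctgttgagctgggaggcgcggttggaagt
Bmp5: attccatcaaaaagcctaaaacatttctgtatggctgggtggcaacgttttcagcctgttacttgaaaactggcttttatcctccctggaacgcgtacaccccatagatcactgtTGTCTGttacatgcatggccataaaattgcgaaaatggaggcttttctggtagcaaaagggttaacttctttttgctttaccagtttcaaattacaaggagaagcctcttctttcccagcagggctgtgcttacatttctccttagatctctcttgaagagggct
The Smad6 window (chr9:64022030-64022309, minus strand) held GTCTAGAC from -4 to 3, counted with the first transcribed base as 0, so the palindrome lay across the start. The Smad9 window (chr3:54755332-54755611, plus strand) held GGCGCC from -51 to -46, and the Id4 window (chr13:48260866-48261145, plus strand) held it from -148 to -143. The RefSeq start of Id4 lies before the start of the gene in the deposited table. The Bmp5 window (chr9:75775115-75775394, plus strand) held TGTCTG from -135 to -130. A match is a description of the letters and not evidence of binding, and among the 9 members with an unadjusted p under 0.05 and a window the GC-rich element was in 2, the palindrome in 1 and the CAGA core in 1.

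The libraries also differed in depth, in mitochondrial transcripts and in transcripts of the intestine. Total counts were between 54489826 and 61580025 per library. Mitochondrially encoded genes took 15.8%, 15.9% and 39.3% of the counts in HFD 2, 3 and 4, against 38.7%, 15.7% and 28.8% in CD 1, 2 and 4. Transcripts of the intestinal epithelium, a list of 20 genes, summed to 225 to 258 CPM (counts scaled to the library total) in the HFD libraries and to 11.7, 26.2 and 196 CPM in CD 1, 2 and 4. Every HFD library was above every CD library in this total-count sum, with CD 4 close to HFD. Of these genes, 14 were at 0 in at least 1 library. Of the 6 osteocyte markers, Dmp1, Sost, Phex, Mepe, Fgf23 and Pdpn, none was at 0 in any library, and their sum was 30.2 to 256 CPM in HFD and 139.8 to 691 CPM in CD libraries. The list was split, with a lower mean in HFD for 4 and a higher one for 2, Sost among them. The osteocyte sum and the levels given below are CPM scaled by TMM, a factor per library that sets the bulk of genes level between libraries. On that scale the intestinal sum was 202, 202 and 272 CPM in HFD 2, 3 and 4, against 18.3, 21.1 and 208 CPM in CD 1, 2 and 4. The groups then overlapped, since CD 4 was above HFD 2 and HFD 3. Log2 fold changes are HFD minus CD with the SE of edgeR's quasi-likelihood fit, and adjusted p-values are Benjamini-Hochberg values over all 19831 genes that passed the count filter. Coordinates are on GRCm38.

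Most of the family had a lower mean in HFD than in CD bone, by an amount that differed between roles and that no member carried past the threshold of the main test. Of the 51 members, 47 passed the filter, and 41 of these had a log2 fold change below 0, against 52.5% of all genes tested. The median over the 47 members was -0.68, against -0.03 over all genes tested. There were 18 members below -1, where 10.1% of all genes lay. The edgeR test called 0 of the 47 members and 0% of all genes at an adjusted p of 0.05, and the smallest adjusted p was 0.466 for both. At an unadjusted p under 0.05, 10 members were lower, where 7.2% of all genes were, and 1 was higher, where 2.46% were. DESeq2 called 2 members lower, Bmp1 and Bmp5, beside 0.968% of its 22625 genes called lower and 0.451% called higher.

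Every HFD library lay below every CD library for 11 members, and no member was higher in each HFD library than in any CD library. Among all genes tested the groups were apart in this way for 10.2% and 4.97%. The 11 were Bmp5, Bmp8a, Gdf11, Inha, Bmp1, Acvr1, Acvrl1, Acvr2b, Tgfbr3, Smad3 and Smad6. With CPM of the total count, without TMM, the groups were apart for 5 members, where 4.26% of all genes were apart as lower and 3.92% as higher, and the same number was found in the deposited FPKM (fragments scaled to gene length and library total). These 5 were Bmp5, Smad3, Inha, Gdf11 and Tgfb3. That scaling moved the median of all genes to 0.24 and that of the members to -0.52, with 36 of 47 members below 0.

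HFD 4 and CD 4 set much of the spread within the groups. HFD 4 was the highest HFD library for 37 of the 47 members and lay inside the CD range for 33 of them. CD 4 was the highest CD library for 27 members. Without HFD 4, 21 members had an unadjusted p under 0.05 and the members' median was -1.02, against -0.02 over all genes tested. Without CD 4, 5 members had such a p and the median was -0.41, against 0.03 over all genes tested. Without HFD 2 and without HFD 3, 6 and 5 members had one. The share of all genes at such a p was not counted in these fits, so these counts cannot be read as particular to the family. CD 4 is also the only CD library with intestinal transcripts near the level of the HFD libraries. Set against CD 4 alone, a comparison chosen after seeing the data, the HFD libraries had 40 of 47 members below 0. The members' median was then -0.95, against 0.09 over all genes tested. Since CD 4 was the highest CD library for 27 members, this choice by itself favours lower values in HFD. The part of intestinal transcripts in the members' levels was not tested.

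**Figure D1:**
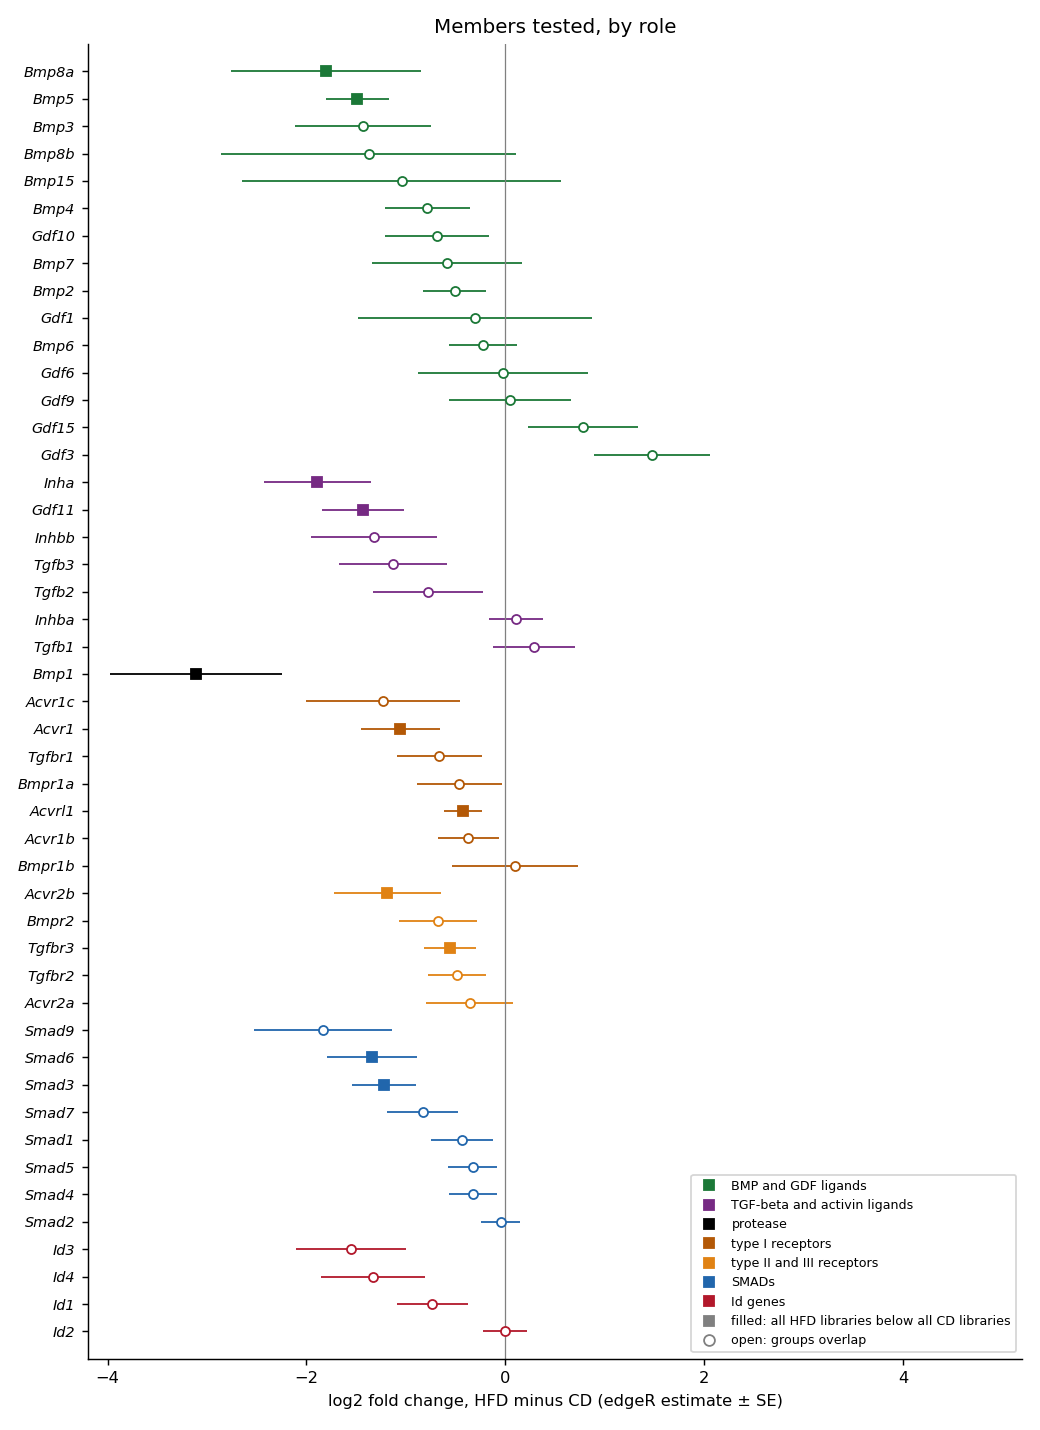
Log2 fold change, HFD minus CD, of the 47 members tested (edgeR estimate ± SE, 3 libraries per group), ordered by role and coloured by it. Filled squares are the 11 members with every HFD library below every CD library, and 41 of the 47 estimates lie left of 0, with Bmp1 farthest at -3.11.

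Among BMP and GDF ligands, 15 of 19 genes were tested, 12 of them with a lower mean in HFD bone, and their median log2 fold change was -0.59. Bmp5, a ligand in whose absence mice have short ears and altered bone shape (ENSMUSG00000032179, chr9:75775364-75900310), had 5.71, 5.76 and 9.58 CPM in HFD 2, 3 and 4, against 23.6, 14.1 and 21.3 CPM in CD 1, 2 and 4. All HFD libraries were below all CD libraries, and HFD 4 was again the HFD library nearest to them. The means were 7.02 ± 2.22 CPM in HFD and 19.7 ± 4.91 CPM in CD bone (SD, n = 3 each). On the log2 scale the difference was -1.49 ± 0.32 (edgeR adjusted p = 0.466). DESeq2 gave Bmp5 an adjusted p of 0.0229, and over the other alternatives the adjusted p lay between 0.145 and 0.916. A predicted gene on the other strand, Gm26903, overlaps Bmp5 with at most 84 counts in a library.

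Bmp6, a ligand that in liver regulates hepcidin, was the most abundant BMP or GDF ligand per length, with a mean FPKM of 4.40 ± 0.346 in HFD and 4.21 ± 1.07 in CD bone (SD, n = 3 each). In CPM it had 14.2, 16.4 and 24.0 in HFD 2, 3 and 4, against 25.0, 12.9 and 25.8 in CD 1, 2 and 4, so the groups overlapped. Its log2 fold change was -0.22 ± 0.34 (edgeR adjusted p = 0.846) and turned above 0 under several settings, among them total-count scaling. Bmp6 overlaps the abundant Txndc5 on the other strand, and reads of the 2 genes cannot be told apart if strand was not used in counting. Bmp3, an antagonist of other BMPs in bone, had the next highest FPKM of the ligands.

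In CPM, Bmp3 (chr5:98854415-98884396) had 6.35, 6.18 and 35.2 in HFD 2, 3 and 4, against 35.0, 43.4 and 50.6 in CD 1, 2 and 4. HFD 2 and HFD 3 were far below every CD library, whereas HFD 4 lay just above CD 1. The fit gave a log2 fold change of -1.43 ± 0.68 (edgeR adjusted p = 0.553), and -2.78 without HFD 4. Bmp8a, best known for its role in the male germ line, had the same pattern in the HFD libraries.

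Bmp8a (chr4:123312645-123343252) had 0.291, 0.352 and 3.71 CPM in HFD 2, 3 and 4, against 4.67, 4.87 and 5.55 CPM in CD 1, 2 and 4. The groups did not overlap, but HFD 4 stood close to the CD libraries and the other HFD libraries close to 0. In edgeR the difference on the log2 scale was -1.80 ± 0.95 (edgeR adjusted p = 0.582) with all libraries, and -3.96 without HFD 4. Bmp8a and its near copy Bmp8b share 104 sequences of 31 bases, 5.60% of those of Bmp8a, so some reads may have been split between them, and Bmp8a also overlaps Oxct2a on the same strand.

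Gdf3, a ligand expressed in macrophages of fat tissue among other places (chr6:122605403-122610087), was the member with the highest log2 fold change. It had 5.76, 5.34 and 1.70 CPM in HFD 2, 3 and 4, against 1.296, 2.38 and 0.930 CPM in CD 1, 2 and 4. HFD 2 and HFD 3 were above all CD libraries, while HFD 4 lay between CD 1 and CD 2. Its log2 fold change was 1.47 ± 0.58 (unadjusted p = 0.0384, edgeR adjusted p = 0.489). The 7 monocyte and macrophage markers moved with it in part, with 413 to 962 CPM in HFD and 344 to 552 CPM in CD libraries in sum, 5 of 7 with a higher mean, and their part in the result was not tested.

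Of the other 10 BMP and GDF ligands tested, Bmp4 and Bmp2, both inducers of bone formation, had log2 fold changes of -0.78 ± 0.43 and -0.51 ± 0.32 with overlapping groups. Gdf15, a stress-induced ligand of a receptor in the brainstem, had 0.78 ± 0.55. Gdf10, Bmp7, Gdf9, Gdf6, Gdf1, Bmp15 and Bmp8b lay between -1.37 and 0.05, all with overlapping groups. The last 3 of these had at most 63 counts in any library, and Gdf1 overlaps Cers1 on the same strand. Bmp10, Gdf2, Gdf5 and Gdf7 had at most 4 counts in a library and were not tested. A count of 0 allows up to 3 counts, or 0.0487 to 0.0551 CPM at the depth of these libraries, so no difference of these 4 genes was detectable.

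**Figure D2:**
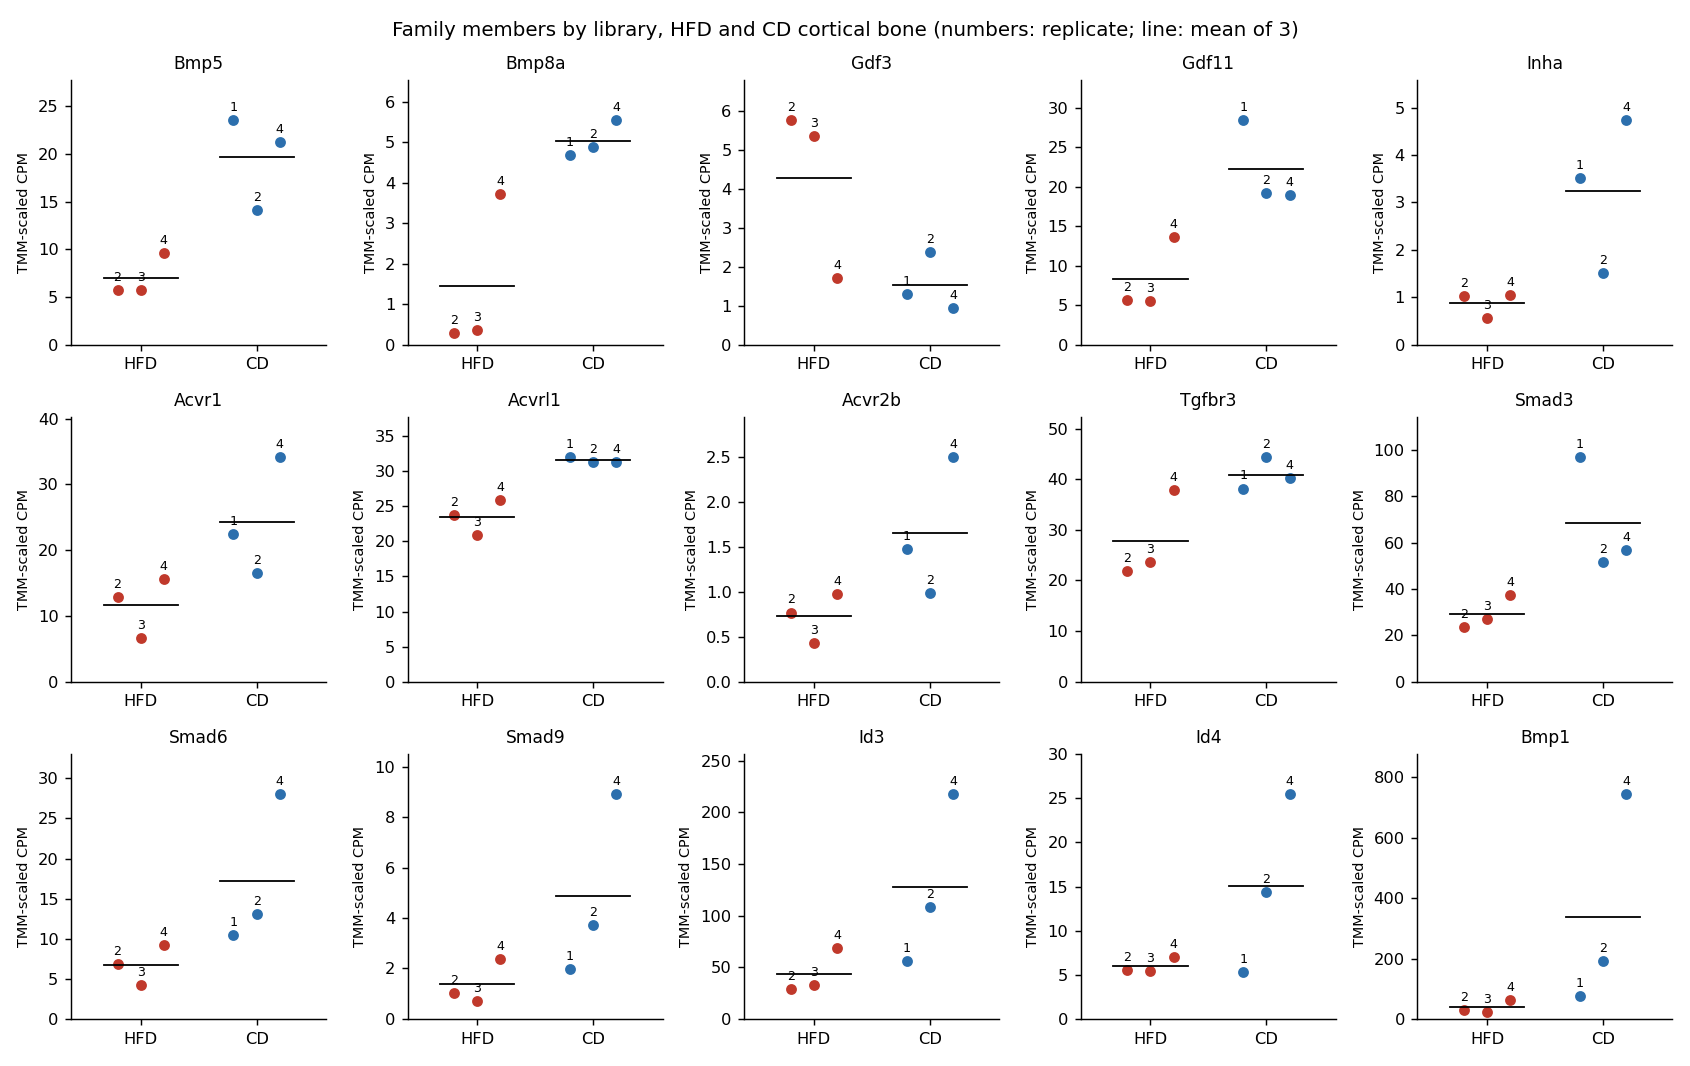
TMM-scaled CPM of the 15 members whose groups did not overlap or whose unadjusted p was under 0.05, one panel per gene, with HFD libraries left of CD libraries, replicate numbers beside the points and lines at the mean of 3. HFD 4 is the HFD library nearest the CD libraries in most panels, and CD 4 stands high for Bmp1, Id3, Id4, Smad6 and Smad9.

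Among TGF-beta and activin ligands, 5 of 7 genes had a lower mean in HFD bone and the median log2 fold change was -1.13. Gdf11, a close relative of myostatin that patterns the axial skeleton (ENSMUSG00000025352, chr10:128882295-128891718), had 5.67, 5.50 and 13.6 CPM in HFD 2, 3 and 4, against 28.5, 19.3 and 18.9 CPM in CD 1, 2 and 4. Every HFD library was below every CD library under both scalings. On the log2 scale the difference was -1.43 ± 0.41 (unadjusted p = 0.0099, edgeR adjusted p = 0.466). Mstn, the myostatin gene itself and not among the 51, had 5.07, 2.41 and 11.9 CPM in the HFD libraries, against 31.4, 12.7 and 12.5 CPM in the CD libraries. The 7 skeletal muscle markers summed to 21344, 4564 and 23722 CPM in the HFD libraries, against 65830, 14898 and 11722 CPM in the CD libraries. Like Mstn, they were highest in CD 1 and lowest in HFD 3, and their part in its levels was not tested.

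Inha, the alpha subunit that pairs with an activin subunit to form inhibin (ENSMUSG00000032968, chr1:75507077-75510366), had 1.03, 0.555 and 1.04 CPM in HFD 2, 3 and 4, against 3.51, 1.50 and 4.74 CPM in CD 1, 2 and 4. The groups did not overlap under either scaling, at counts of 41 to 275 per library. The fit gave a log2 fold change of -1.89 ± 0.54 (unadjusted p = 0.00928, edgeR adjusted p = 0.466). Of the activin subunits, Inhba had 0.11 ± 0.27 and Inhbb -1.32 ± 0.64 on the log2 scale, both with overlapping groups.

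Tgfb1, the TGF-beta most abundant in bone matrix, had the highest FPKM of the ligands here, 25.9 ± 14.1 in HFD and 18.3 ± 10.7 in CD bone (SD, n = 3 each). Its CPM was 107, 186 and 90.4 in HFD 2, 3 and 4, against 56.6, 125 and 132 in CD 1, 2 and 4, and the groups overlapped widely. The log2 fold change of 0.29 ± 0.42 (edgeR adjusted p = 0.838) turned below 0 without HFD 3, the highest library. Platelets are a known store of Tgfb1 protein, and the 5 platelet markers summed to 515, 2038 and 507 CPM in the HFD libraries, against 109, 585 and 154 CPM in the CD libraries. HFD 3 was highest for both, but CD 4 came next for Tgfb1 and was below every HFD library for the platelet sum. A relation between the levels was not tested.

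Tgfb3, the next of the ligands by FPKM, had 30.0, 8.95 and 42.5 CPM in HFD 2, 3 and 4, against 72.8, 37.6 and 67.5 CPM in CD 1, 2 and 4. HFD 4 lay above CD 2 on this scale, although every HFD library was below every CD library in CPM of the total count. In edgeR the difference on the log2 scale was -1.13 ± 0.54 (edgeR adjusted p = 0.556), and -0.71 without HFD 3, the lowest library. Tgfb2 had -0.78 ± 0.55 on the log2 scale with overlapping groups.

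Bmp1, the protease that trims the C-terminal propeptides of fibrillar procollagens, had the lowest log2 fold change of the 47 members (ENSMUSG00000022098, chr14:70474558-70520188). It had 30.4, 22.7 and 64.1 CPM in HFD 2, 3 and 4, against 77.4, 191 and 743 CPM in CD 1, 2 and 4. All HFD libraries were below all CD libraries, but CD 4 alone stood far above the rest and HFD 4 was near CD 1. Its log2 fold change was -3.11 ± 0.87 (unadjusted p = 0.00818, edgeR adjusted p = 0.466), and -1.71 without CD 4. DESeq2 gave an adjusted p of 0.00884, and over the other alternatives the adjusted p lay between 0.12 and 0.916. In CPM of the total count the groups overlapped.

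Osteoblast markers had nearly the same order of libraries as Bmp1. The 9 osteoblast genes summed to 3262, 1540 and 7536 CPM in HFD 2, 3 and 4, against 6556, 18294 and 74592 CPM in CD 1, 2 and 4, and all 9 had a lower mean in HFD bone. Within each library, the FPKM of Bmp1 divided by that of Col1a1, the main chain of type I collagen, was 0.0178, 0.0494 and 0.0178 in HFD 2, 3 and 4, against 0.0262, 0.0184 and 0.0167 in CD 1, 2 and 4. These ratios overlapped between the diets and spanned a far narrower range than Bmp1 itself. In bulk RNA, fewer cells of a type and less RNA per cell cannot be told apart.

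**Figure D3:**
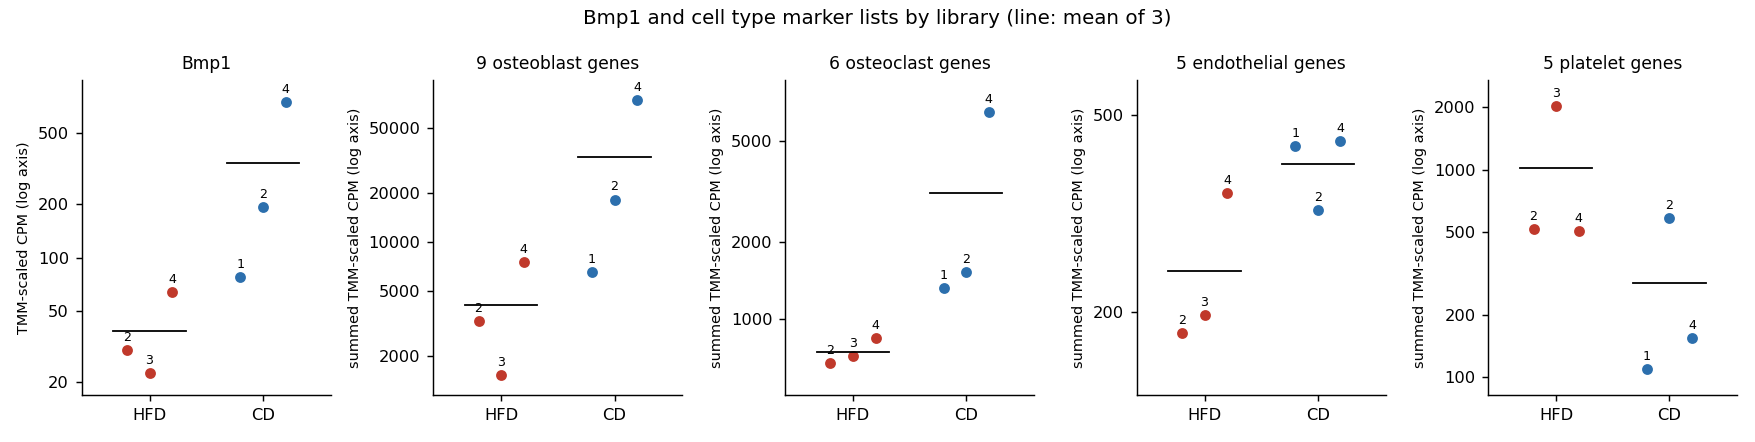
TMM-scaled CPM of Bmp1 and summed TMM-scaled CPM of 4 marker lists in each library (log axes), HFD left of CD, with replicate numbers and lines at the mean of 3. Bmp1 and the 9 osteoblast genes are lowest in HFD 3 and highest in CD 4, the 6 osteoclast and 5 endothelial genes have lower means in HFD, and the 5 platelet genes a higher mean.

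Type I receptors, which phosphorylate the SMADs, had a lower mean in HFD bone for 6 of 7 genes, with a median log2 fold change of -0.47. Acvr1, the BMP receptor ALK2, which in humans is mutated in fibrodysplasia ossificans progressiva (chr2:58388644-58566828), had 12.9, 6.69 and 15.6 CPM in HFD 2, 3 and 4, against 22.4, 16.5 and 34.1 CPM in CD 1, 2 and 4. Every HFD library was below every CD library, by a small margin between HFD 4 and CD 2. On the log2 scale the difference was -1.06 ± 0.39 (unadjusted p = 0.0305, edgeR adjusted p = 0.475), and -0.66 without CD 4.

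Acvrl1, the endothelial receptor ALK1 for Gdf2 and Bmp10 (chr15:101128522-101145336), had 23.7, 20.8 and 25.9 CPM in HFD 2, 3 and 4, against 32.0, 31.3 and 31.3 CPM in CD 1, 2 and 4. The CD libraries were almost equal and all above the HFD libraries. The fit gave a log2 fold change of -0.42 ± 0.19 (edgeR adjusted p = 0.525), and -0.19 with total-count scaling, where the groups overlapped. The 5 endothelial markers moved with it, at 181 to 348 CPM in HFD and 321 to 442 CPM in CD libraries in sum, and the ratio of Acvrl1 to Pecam1 in FPKM overlapped between the diets, at 0.407, 0.307 and 0.246 in the HFD libraries, against 0.288, 0.314 and 0.285 in the CD libraries.

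Tgfbr1, the type I receptor of TGF-beta and the most abundant of its role per length, had 45.2, 43.1 and 49.9 CPM in HFD 2, 3 and 4, against 48.2, 43.2 and 127 CPM in CD 1, 2 and 4. All libraries apart from CD 4 lay close together, and the log2 fold change of -0.66 ± 0.42 (edgeR adjusted p = 0.643) was 0.08 without that library. Bmpr1a and Bmpr1b, the BMP receptors ALK3 and ALK6, had -0.47 ± 0.43 and 0.10 ± 0.64, and the activin receptor Acvr1b had -0.37 ± 0.30, all with overlapping groups. Acvr1c had at most 36 counts in a library.

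All 5 type II and III receptors, which bind ligand and activate or assist the type I receptors, had a lower mean in HFD bone, with a median log2 fold change of -0.56. Tgfbr3, or betaglycan, the co-receptor that presents TGF-beta 2 and inhibin (chr5:107106570-107289629), had 21.9, 23.7 and 37.9 CPM in HFD 2, 3 and 4, against 38.2, 44.3 and 40.2 CPM in CD 1, 2 and 4. The groups were apart, with HFD 4 next to CD 1. In edgeR the difference on the log2 scale was -0.56 ± 0.26 (edgeR adjusted p = 0.545), and -0.85 without HFD 4.

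Acvr2b, an activin and myostatin receptor (chr9:119402118-119434995), had 0.770, 0.433 and 0.978 CPM in HFD 2, 3 and 4, against 1.47, 0.992 and 2.50 CPM in CD 1, 2 and 4. The groups were barely apart, since HFD 4 and CD 2 were almost equal, and counts were 32 to 145 per library. Its log2 fold change was -1.19 ± 0.54 (edgeR adjusted p = 0.533), and -0.69 without CD 4. Tgfbr2, the type II receptor of TGF-beta and the most abundant of its role per length, had 53.6, 53.4 and 76.0 CPM in HFD 2, 3 and 4, against 71.2, 68.5 and 117 CPM in CD 1, 2 and 4.

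The Tgfbr2 libraries overlapped, with HFD 4 above CD 1 and CD 2, and its log2 fold change was -0.49 ± 0.29 (edgeR adjusted p = 0.62), or -0.13 without CD 4. Bmpr2, the main BMP type II receptor, had -0.68 ± 0.39 and Acvr2a -0.36 ± 0.44 on the log2 scale, both with overlapping groups. Acvr2a overlaps Orc4 on the other strand.

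All 8 SMAD genes had a lower mean in HFD bone, with a median log2 fold change of -0.63 and 3 members lower at an unadjusted p under 0.05, against 7.2% of all genes. Smad3, which carries TGF-beta and activin signals (ENSMUSG00000032402, chr9:63646767-63757994), had 23.4, 27.0 and 37.5 CPM in HFD 2, 3 and 4, against 96.9, 51.5 and 56.8 CPM in CD 1, 2 and 4. Every HFD library was below every CD library under both scalings, and CD 1 was the highest. The means were 29.3 ± 7.29 CPM in HFD and 68.4 ± 24.8 CPM in CD bone (SD, n = 3 each). On the log2 scale the difference was -1.22 ± 0.32 (unadjusted p = 0.00602, edgeR adjusted p = 0.466), and it was -0.78 with the intestinal list as a covariate. The median over the members went the other way with that covariate, from -0.68 to -0.93. Smad2, which carries the same signals, was nearly level at -0.05 ± 0.20.

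Smad6, an inhibitor of BMP signals and itself a BMP target, has the palindrome in its promoter shown above (chr9:63953076-64022059). It had 6.89, 4.28 and 9.18 CPM in HFD 2, 3 and 4, against 10.5, 13.1 and 28.0 CPM in CD 1, 2 and 4. The groups were apart, with HFD 4 near CD 1 and CD 4 standing high. The fit gave a log2 fold change of -1.34 ± 0.45 (unadjusted p = 0.0199, edgeR adjusted p = 0.466), and -0.73 without CD 4. Smad7, the inhibitor of both branches, had -0.83 ± 0.36 with overlapping groups.

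Smad9, a SMAD of the BMP branch with the GC-rich element in its promoter (chr3:54755582-54801257), had 1.03, 0.704 and 2.38 CPM in HFD 2, 3 and 4, against 1.98, 3.72 and 8.90 CPM in CD 1, 2 and 4. HFD 4 lay above CD 1, so the groups overlapped, and CD 4 was the highest library. In edgeR the difference on the log2 scale was -1.83 ± 0.69 (unadjusted p = 0.0318, edgeR adjusted p = 0.475), and -0.99 without CD 4. The other SMADs of the BMP branch, Smad1 and Smad5, had -0.44 ± 0.31 and -0.33 ± 0.25 on the log2 scale with overlapping groups.

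Smad4, the common partner of both branches and the SMAD with the highest mean FPKM over all libraries, had 27.1, 22.9 and 34.6 CPM in HFD 2, 3 and 4, against 36.8, 28.9 and 40.5 CPM in CD 1, 2 and 4. The groups overlapped, and the log2 fold change was -0.33 ± 0.24 (edgeR adjusted p = 0.688), or -0.08 with total-count scaling.

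The 4 Id genes, inhibitors of basic helix-loop-helix factors that are a readout of BMP signals, had log2 fold changes from -1.55 to -0.0035. Id3 (chr4:136143497-136145392) was the most abundant of them per length. It had 29.0, 32.8 and 68.4 CPM in HFD 2, 3 and 4, against 56.4, 108 and 217 CPM in CD 1, 2 and 4. HFD 2 and HFD 3 were below all CD libraries, HFD 4 lay above CD 1, and CD 4 was the highest. Its log2 fold change was -1.55 ± 0.55 (unadjusted p = 0.0248, edgeR adjusted p = 0.472), and -0.86 without CD 4.

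Id4 (chr13:48261228-48266026), whose promoter holds the GC-rich element, had 5.52, 5.43 and 7.01 CPM in HFD 2, 3 and 4, against 5.34, 14.4 and 25.4 CPM in CD 1, 2 and 4. CD 1 was as low as the HFD libraries, and CD 2 and CD 4 stood above all of them. On the log2 scale the difference was -1.33 ± 0.52 (unadjusted p = 0.0363, edgeR adjusted p = 0.484), and -0.66 without CD 4. Id1, the best known BMP target of the 4, had 15.0, 13.6 and 30.4 CPM in HFD 2, 3 and 4, against 30.9, 26.7 and 40.7 CPM in CD 1, 2 and 4.

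For Id1, HFD 2 and HFD 3 were below all CD libraries and HFD 4 lay between CD 2 and CD 1. Its log2 fold change was -0.73 ± 0.36 (edgeR adjusted p = 0.56), -1.19 without HFD 4 and -0.48 without CD 4. Id2 was level between the diets, at -0.0035 ± 0.22 on the log2 scale.

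Ratios of related members within a library do not depend on how libraries are scaled. They were chosen after the values had been seen and are given as a description with no test. The FPKM of Smad3 divided by that of Smad2, the other SMAD of its branch, was 1.32, 1.596 and 2.45 in HFD 2, 3 and 4, against 6.58, 2.74 and 3.14 in CD 1, 2 and 4. Bmp5 to Bmp6, a pair of ligands of the same subgroup, gave 0.389, 0.340 and 0.387 in the HFD libraries, against 0.912, 1.07 and 0.800 in the CD libraries. In both ratios every HFD library was below every CD library, and for Bmp5 to Bmp6 the HFD libraries, HFD 4 included, were nearly equal.

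Smad6 to Smad5, an inhibitor over a carrier of BMP signals, was 0.415, 0.276 and 0.491 in the HFD libraries, against 0.581, 0.739 and 1.002 in the CD libraries. Id3 to Id2 was 0.952, 1.01 and 2.01 in the HFD libraries, against 2.26, 2.77 and 6.53 in the CD libraries. The groups were apart for these ratios too, with HFD 4 the nearest to the CD libraries. Tgfb1 to Tgfb3 overlapped, with 2.39, 14.0 and 1.43 in the HFD libraries, against 0.522, 2.23 and 1.31 in the CD libraries.

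**Figure D4:**
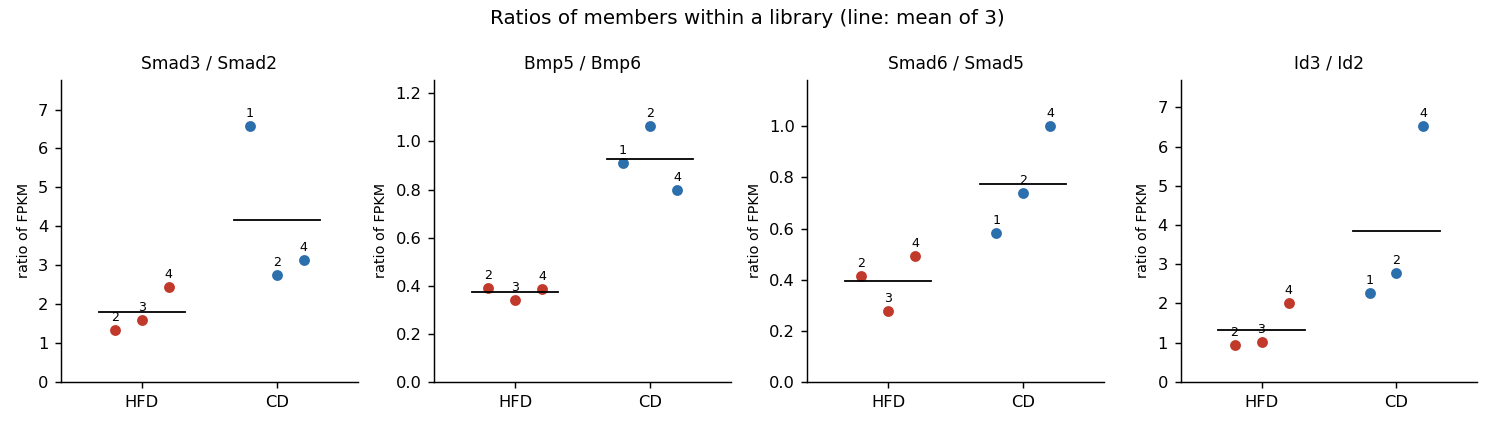
Ratio of the FPKM of 2 members within each library, HFD left of CD, with replicate numbers and lines at the mean of 3. The 4 ratios shown were chosen after the values had been seen, and in each every HFD library is below every CD library. Ratios with overlapping groups, such as Tgfb1 to Tgfb3, are not shown. Bmp5 to Bmp6 lies between 0.340 and 0.389 in HFD and between 0.800 and 1.07 in CD.

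**Figure D5:**
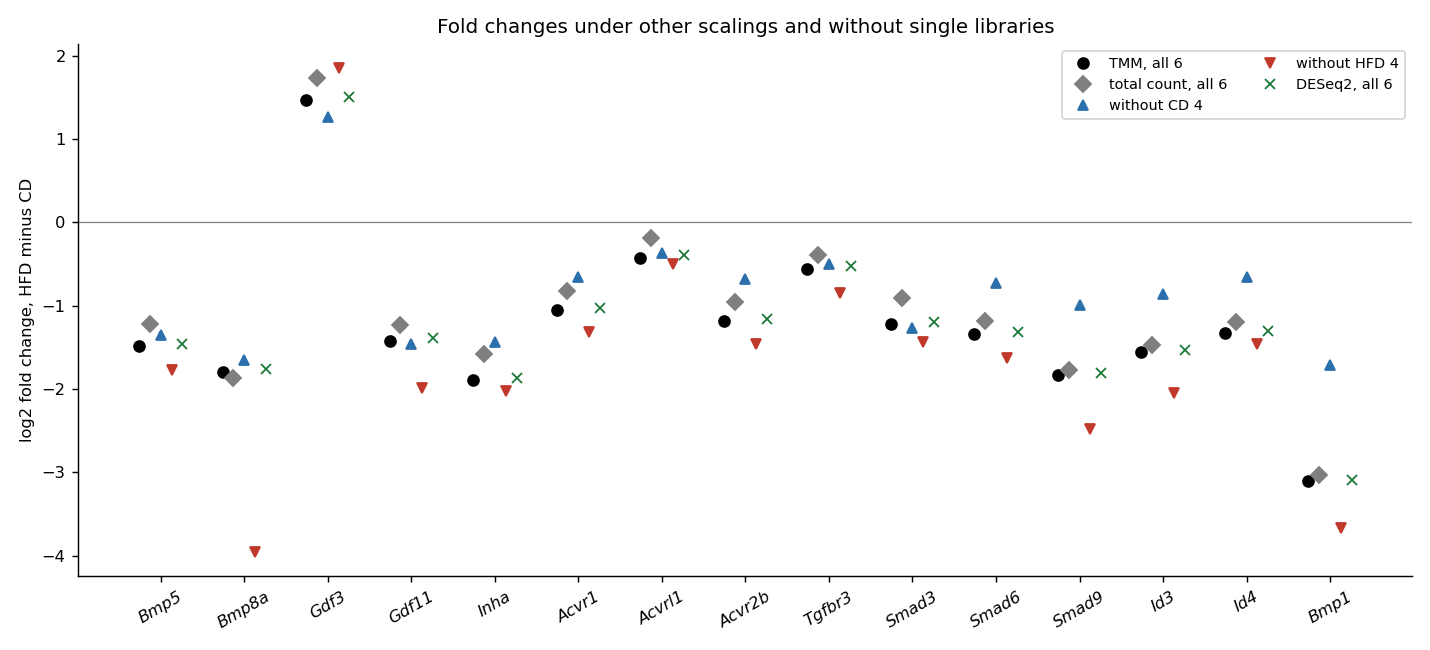
Log2 fold change, HFD minus CD, of the 15 members shown by library, with TMM scaling and all 6 libraries, with total-count scaling, without CD 4, without HFD 4 and with DESeq2. Each of these members keeps its sign under the 5 settings, while Bmp8a goes to -3.96 without HFD 4 and Bmp1 to -1.71 without CD 4.

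Other genes of the pathway, 84 in all on 7 lists that leave out the 51 members, were mostly lower in HFD bone as well. Of the 79 tested, 69 had a lower and 10 a higher mean, where 52.5% of all genes had a lower one, with a median log2 fold change of -0.69. The edgeR test called 0 of them, 27 were lower and 1 higher at an unadjusted p under 0.05, where 7.2% and 2.46% of all genes were. DESeq2 called 7, beside 0.968% of its genes called lower and 0.451% called higher. Every HFD library was below every CD library for 27 and above for 1, where the groups of 10.2% and 4.97% of all genes were apart in these directions. The list of other ligands of the family went the other way, with 1 of 3 genes tested lower, Mstn, and 2 higher, at a median of 0.19.

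Targets of BMP signals had a lower mean in all 16 genes tested, with a median log2 fold change of -1.56, and 10 genes were lower at an unadjusted p under 0.05, where 7.2% of all genes were. Tbx2, a T-box factor, had the smallest p, with 5.67, 6.85 and 17.9 CPM in HFD 2, 3 and 4, against 26.4, 45.7 and 97.3 CPM in CD 1, 2 and 4. Its groups were apart under both scalings, and its log2 fold change was -2.48 ± 0.62 (unadjusted p = 0.00481, edgeR adjusted p = 0.466). The most abundant, Sp7, the osterix factor of osteoblasts, had 10.4, 10.7 and 28.0 CPM in the HFD libraries, against 35.8, 100.2 and 352 CPM in the CD libraries. Sp7 and Runx2 stand on the osteoblast marker list too, so this list is not independent of the amount of osteoblast RNA.

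Targets of TGF-beta were lower in 11 of 12 genes tested, with a median of -0.89. Ltbp2, a matrix protein of the latent TGF-beta binding protein family that is also on the list of latency genes, had the smallest p, with 30.6, 24.1 and 33.4 CPM in HFD 2, 3 and 4, against 41.5, 47.3 and 51.9 CPM in CD 1, 2 and 4. The groups were apart on this scale, at a log2 fold change of -0.68 ± 0.21 (edgeR adjusted p = 0.466), and overlapped in CPM of the total count. Col1a1, the most abundant and an osteoblast marker as well, had 1262, 339 and 2658 CPM in the HFD libraries, against 2181, 7663 and 32927 CPM in the CD libraries, and its groups overlapped.

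Genes of latency and activation, which hold the ligand inactive in the matrix or release it, were lower in 13 of 16, with a median of -0.89 and 9 lower at an unadjusted p under 0.05, against 7.2% of all genes. Tll1, a protease of the same family as Bmp1, had 0.494, 0.352 and 0.819 CPM in HFD 2, 3 and 4, against 1.91, 2.44 and 1.81 CPM in CD 1, 2 and 4. Its groups were apart, at a log2 fold change of -1.89 ± 0.47 (unadjusted p = 0.00483, edgeR adjusted p = 0.466). Thbs1, an activator of latent TGF-beta and the most abundant of these genes, was level, at 0.01 ± 0.54 on the log2 scale.

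Secreted antagonists were lower in 12 of 16 genes, with a median of -0.35 and 1 gene at an unadjusted p under 0.05 in each direction, against 7.2% of all genes lower and 2.46% higher. Chrdl2, a chordin relative, was the higher one at 65, 22 and 89 counts in the HFD libraries, against 9, 0 and 0 counts in the CD libraries, too few for a firm fold. Nbl1, or DAN, the most abundant, had 26.5, 16.4 and 77.1 CPM in HFD 2, 3 and 4, against 90.5, 69.9 and 120.4 CPM in CD 1, 2 and 4, with overlapping groups. Co-receptors were lower in 7 of 7. Among them Bambi, a decoy receptor and BMP target, had 4.71, 5.27 and 11.1 CPM in the HFD libraries, against 8.94, 19.9 and 40.5 CPM in the CD libraries.

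Co-receptor Hjv, or hemojuvelin, a muscle and liver gene, was the most abundant of its list and had 185, 37.8 and 211 CPM in the HFD libraries, against 497, 91.5 and 108.5 CPM in the CD libraries. The skeletal muscle markers moved with it, at 4564 to 23722 CPM in HFD and 11722 to 65830.1 CPM in CD libraries in sum with CD 1 highest, and their part in its levels was not tested. Intracellular regulators were lower in 13 of 14, with a median of -0.46. Fkbp1a, which holds type I receptors inactive, had 75.7, 63.1 and 77.2 CPM in HFD 2, 3 and 4, against 114, 90.9 and 104 CPM in CD 1, 2 and 4. Its groups were apart on this scale and overlapped in CPM of the total count.

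Markers of several other cell types differed in mean between the diet groups, some of them with overlapping libraries. In TMM-scaled CPM all 6 osteoclast markers were lower in each HFD library than in any CD library, at 673 to 841 CPM in HFD and 1323 to 6514 CPM in CD libraries in sum. So were all 4 markers of fibrous matrix, at 235 to 1037 CPM in HFD and 1378 to 1976 CPM in CD libraries. Among all genes tested 10.2% were apart in this direction on that scale, and 4.26% in CPM of the total count. The 4 smooth muscle and pericyte markers, with 131 to 413 CPM in HFD and 323 to 512 CPM in CD libraries in sum, had lower means in HFD bone. The 7 neutrophil and 5 erythroid markers had higher means, but the groups overlapped widely in sum. Neutrophil sums were 6399 to 13131 CPM in HFD and 4206 to 12938 CPM in CD libraries, and erythroid sums 7960 to 24009 and 3958 to 12784 CPM. The 4 adipocyte markers were split, with 2 lower and 2 higher. Outside the intestinal list no marker of these lists was at 0 in a library. The part of these shifts in the levels of the 51 members was not tested.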

How the data were processed

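Bulk mRNA was sequenced from 6 cortical bone libraries. Per the labels, polyadenylated RNA was selected, second strands were marked so that strand can be read, and adapters carried unique molecular identifiers. The authors deposited 1 table of 32000 genes that holds, for each library, whole-number gene counts and FPKM. Tools credited by the submitters' processing notes are HISAT2 2.0.4 and StringTie 1.3.4d, with cutadapt 1.9, UMI-tools, edgeR and DESeq2, none with its role. A different aligner and counting program stand in the study's methods. The origin of the counts, and any use of strand, is therefore not settled. The deposited FPKM were proportional to the counts within a gene: of the values of 10836 well counted genes, 99.98% were so within 1%, and both columns hold 1 measurement.

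Groups and replicate numbers came from the labels. Total counts per library, 54489826 to 61580025, are the depth behind each value. The 51 members, of which 45 have the start and end of GENCODE M21 (GRCm38), were tested within a fit of the counts over all genes in edgeR 4.0.16 (R 4.3.3). It used TMM factors, a minimum count of 10 in filterByExpr, the quasi-likelihood test without covariates, and Benjamini-Hochberg adjustment at 0.05. Alternatives were DESeq2 1.42.0, where an empty adjusted p was left as it was, and limma 3.58.1 on log2(FPKM + 1) or log2(FPKM + 0.1), with genes kept if 3 libraries reached an FPKM of 0.5, or with all genes. Further alternatives were other scalings, no count filter, the intestinal list or the mitochondrial share as a covariate, a replicate block, and each library left out. No pair of libraries agreed within sampling noise, judged by a chi-square per gene of their counts. The smallest value, 189, was for CD 1 and HFD 4, libraries of different diets, whereas pairs within a group had 391 to 1040. With 3 libraries against 3, an exact two-sided permutation test cannot give a p below 0.1, so none was run for single genes. The fitting code was tested on simulated data.

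The members and lists were chosen with earlier results of these data known. Values per library are given for members whose groups did not overlap, that had an unadjusted p under 0.05 or a DESeq2 call, or that had the 2 highest mean FPKM of their role. For the other pathway lists they are given for the gene with the smallest p and the most abundant gene.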

Additional observations from a re-analysis of the deposited data

How the results depend on the processing

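Counts of calls depended on the tool. DESeq2 called 321 genes, among them 2 members and 7 other pathway genes, and limma called 10 genes on log2(FPKM + 1), 7 on log2(FPKM + 0.1) and 0 with no filter, none of them a member. Leaving out single libraries gave 0 to 24 genes called by edgeR, with 24 only without CD 4, and no member. Members at an unadjusted p under 0.05, 11 with all libraries, numbered 7 in each of the 3 limma fits, 18 against CD 4 alone and 5 to 21 when 1 library was left out, with 5 without CD 4 or HFD 3, 6 without HFD 2 and 21 without HFD 4. Other pathway genes at such a p, 28 with all libraries, numbered 16 with total-count scaling, 16, 15 and 12 in the limma fits and 7 to 36 when 1 library was left out (7 without CD 4, 10 without HFD 2, 12 without HFD 3). Outside the main fit the share of all genes at such a p was not counted, so these shifts cannot be read as particular to the members or the pathway. The members' median of -0.68 was -0.29 in limma on log2(FPKM + 1) and -0.20 with no filter, and -1.02 to -0.41 when 1 library was left out. The median of all genes, -0.03 in the main fit, was 0.19 in limma on log2(FPKM + 1) and 0.03 with no filter. The 11 members with every HFD library below every CD library were 5 with total-count scaling and 5 in FPKM. The cause of these shifts was not tested.

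Of the 23 members with values per library, 20 kept the sign of their log2 fold change in every setting that gave them a value. Smad9 and Acvr2b have none in the limma fits with the FPKM filter, which removed them. Bmp6 turned to 0.0611 with total-count scaling, 0.0695, 0.0879 and 0.0695 in the limma fits and 0.0188 with the replicate block, and lay between -0.484 and 0.00754 when 1 library was left out, above 0 without CD 4. Tgfb1 turned to -0.388 with the replicate block, -0.31 with the intestinal covariate and -0.0473 against CD 4 alone, and lay between -0.0851 and 0.538 when 1 library was left out, below 0 without HFD 3 (-0.0851) and without CD 1 (-0.0113). Tgfbr1 lay between -0.932 and 0.0756 when 1 library was left out, above 0 without CD 4.

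The groups share replicate numbers 2 and 4 only, and the labels give these numbers no meaning. Deviations from the group mean correlated at -0.28 between the libraries numbered 2 and at 0.264 between those numbered 4, so the numbers were not taken to pair the samples. With the replicate block 13 members had an unadjusted p under 0.05, a count with no share of all genes beside it, and none was called. The median was -0.55, against -0.03 over all genes tested.

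Members with under 100 counts in a library, among them Inha, Acvr2b, Smad9 and Gdf3, are limited by depth. The floor given for a count of 0 covers counting error only, whereas SEs and SDs include the spread between libraries.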
